A study of Mus musculus with 36 samples.

Results

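The genes of branched-chain amino acid breakdown were followed in epididymal visceral white adipose tissue (visWAT) and liver of male C57BL/6J mice. The set was chosen by name: rows of the deposited gene table whose symbol belongs to the mitochondrial pathway of leucine, isoleucine and valine, to its regulators, to the mitochondrial carrier, or to the downstream use of propionate and ketone bodies. All 29 genes so named were found among the 56748 genes of the table, 1 row each. RNA was sequenced from both tissues of the same 18 mice, which gave 36 libraries in 8 groups. Mlkl Adi-KO mice (KO below) carried loxP-flanked Mlkl and an Adipo-Cre transgene, which deletes Mlkl in mature adipocytes, and WT mice were floxed littermates without Cre, so that the loxP sites were common to both genotypes and the transgene was not. Mice entered the experiment at 16 weeks of age and were fed normal chow (NCD, 4 WT and 4 KO mice) or a high-fat diet (HFD, 5 WT and 5 KO mice) for 16 weeks. A liver labelled KO therefore comes from a mouse without Mlkl in adipocytes; hepatocytes were not targeted.

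Branched-chain amino acids are first transaminated, in mitochondria by Bcat2 and in the cytosol by Bcat1, to branched-chain keto acids. The branched-chain ketoacid dehydrogenase complex (BCKDH) then commits them to oxidation. Its E1 component is a tetramer of alpha (Bckdha) and beta (Bckdhb) chains, Dbt is the E2 core, and Dld is an E3 shared with other dehydrogenases. The kinase Bckdk switches the complex off by phosphorylating E1 alpha, and the phosphatase Ppm1k switches it back on. Mature adipocytes run the pathway to acetyl-CoA and odd-chain precursors, whereas liver is known for little transamination of these amino acids and a high capacity to oxidize their keto acids.

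Values are FPKM, the reads of a gene scaled by its annotated length and by a library size, as the authors deposited them. Divided by the summed gene reads, that size ranged from 1.01 to 1.40 for visWAT libraries and from 0.737 to 0.812 for liver libraries, so that comparisons of levels between tissues rest on the authors' scaling. Each library held 20875463 to 30322171 reads on genes, and Bckdhb had 1135 to 3744 of them in visWAT and 1435 to 2956 in liver. The 12 mature adipocyte markers of the list used here summed to 5355 to 22270 FPKM in visWAT libraries and to 185.4 to 377.1 FPKM in liver libraries. The 9 hepatocyte markers in the table summed to 62978 to 90463 FPKM in liver libraries and to 24.6 to 1980 FPKM in visWAT libraries. In visWAT on NCD most of that sum was Cyp2e1, with means of 1158 FPKM in WT and 1134 FPKM in KO mice, beside 11.7 and 21.0 FPKM for Alb. In visWAT on HFD the sum was 1520 FPKM in KO mouse 156 and at most 345.8 FPKM in the other mice. Mlkl, the targeted gene, was 2.32 to 2.72 FPKM in visWAT of the HFD-fed KO mice and 4.58 to 6.28 FPKM in that of the HFD-fed WT mice. On NCD, Mlkl was 1.96 to 2.49 FPKM in KO mice, and 5.11, 4.63 and 3.91 FPKM in WT mice 165, 180 and 183. The visWAT library labelled WT NCD mouse 182 had 2.29 FPKM, which goes against its label, and it also held the highest level of several members. The visWAT library of WT NCD mouse 183 carried 255949 FPKM in all of 6 seminal vesicle genes, and libraries of the other 3 mice of that group at most 334.5. Most counts of members called that rest on both visWAT libraries, and some values of Bckdhb, are also given without them. p-values of the fits across all genes are from limma on log2(FPKM + 1) with Benjamini-Hochberg adjustment, and a gene is called when its adjusted p is under 0.05.

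The sequences in front of the start sites of both E1 chains are shown because Bckdhb and Bckdha moved apart in what follows. Each was read from GRCm39, which is the build of the deposited files (mm39), 5′ to 3′ on the gene's own strand, and ends 1 base before the start of the canonical transcript of GENCODE. Capitals mark GC boxes (GGGCGG) and CCAAT boxes (CCAAT) on either strand; no marked box overlaps another. Bckdhb is at chr9:83806880-83807129 on the plus strand and Bckdha at chr7:25358421-25358520 on the minus strand, where only 100 bases are shown because an exon of the neighbouring gene Exosc5 lies beyond them.
Bckdhb: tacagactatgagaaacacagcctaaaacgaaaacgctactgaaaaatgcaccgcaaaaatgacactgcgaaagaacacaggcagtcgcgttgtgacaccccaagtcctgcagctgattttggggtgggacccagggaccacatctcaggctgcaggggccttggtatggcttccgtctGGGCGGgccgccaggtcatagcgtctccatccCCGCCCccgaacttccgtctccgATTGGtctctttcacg
Bckdha: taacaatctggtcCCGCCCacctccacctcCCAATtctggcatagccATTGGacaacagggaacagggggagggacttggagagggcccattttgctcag
The window of Bckdhb holds 2 GC boxes and a CCAAT box, and the shorter one of Bckdha a GC box and 2 CCAAT boxes. All of the 29 members had such a window of 250 bases, with a median GC content of 55.2% (all 21770 protein-coding windows: 53.2%). A GC box was present in 17 of the 29 windows and in 36.3% of all windows, and a CCAAT box in 14 of the 29 and in 36.5% of all. The E-box CACGTG was found in 2 members (Acat1 and Bckdha; 6.26% of all windows), the TATA box TATAAA in 2 (Bckdk and Hibch; 11.9% of all), and the nuclear receptor half-site AAGGTCA in 0 (3.93% of all). These are matches of letters only. Antisense exons of the noncoding gene Gm36278 overlap the Bckdhb window.

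In WT mice on NCD the pathway was divided unevenly between the tissues. Bcat2 was 66.7 ± 14.6 FPKM in visWAT and 9.52 ± 0.654 FPKM in liver (SD, n = 4 mice). Bcat1 was 0.150 to 0.434 FPKM in visWAT, and in liver it was listed at 0 FPKM in 3 of these mice and at 0.00518 FPKM in mouse 182. Oxct1, which activates ketone bodies for use outside the liver, was 50.8 ± 3.38 FPKM in visWAT and 1.62 ± 1.05 FPKM in liver. The kinase Bckdk was 21.4 ± 4.72 FPKM in visWAT against 4.18 ± 0.461 FPKM in liver, while the phosphatase Ppm1k was 1.92 ± 0.381 FPKM against 14.9 ± 1.76 FPKM (SD, n = 4 each). The balance of the BCKDH regulators was thus turned round between the tissues, kinase above phosphatase in visWAT and phosphatase above kinase in liver, in each of the 4 mice. Abat, the GABA transaminase, was 3.09 ± 1.68 FPKM in visWAT and 69.8 ± 9.58 FPKM in liver.

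Of the 28 members that passed the filter of a mean FPKM of at least 0.5 in this comparison (all but Bcat1), 4 were called higher and 11 lower in visWAT (Oxct1 by a log2 difference of 4.38, Bcat2 by 2.67, Bckdk by 2.10 and Mccc1 by 0.73 were the higher ones). The most negative log2 differences were those of Abat, Ppm1k and Acat1, at −4.19, −2.45 and −1.51 (limma, n = 4 mice in each tissue). Among all 14544 genes, 65.5% were called, 31.5% higher and 34% lower in visWAT. Mice number the libraries of both tissues, and with the mouse as a block 4 were called higher and 9 lower, the calls of Bckdha and Aldh6a1 being lost (limma). With TPM values, which shifted the median of all genes up by 0.52, 6 were called higher and 2 lower, so that the direction of the small differences depends on the scaling. Without mice 182 and 183, 4 were called higher and 13 lower in FPKM, and 18 higher and 4 lower in TPM. Of the BCKDH subunits, Dbt (23.3 ± 3.58 FPKM in visWAT and 40.9 ± 2.31 FPKM in liver; log2 difference −0.80) and Bckdha (33.6 ± 13.2 and 49.4 ± 2.87 FPKM; −0.61) were called lower in visWAT in the fit without the block. The others were not called: Bckdhb was 51.7 ± 17.3 FPKM in visWAT and 55.2 ± 15.9 FPKM in liver (log2 difference −0.11, 95% interval −0.70 to 0.48), and Dld 59.2 ± 30.9 and 51.1 ± 1.86 FPKM.

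**Figure D1:**
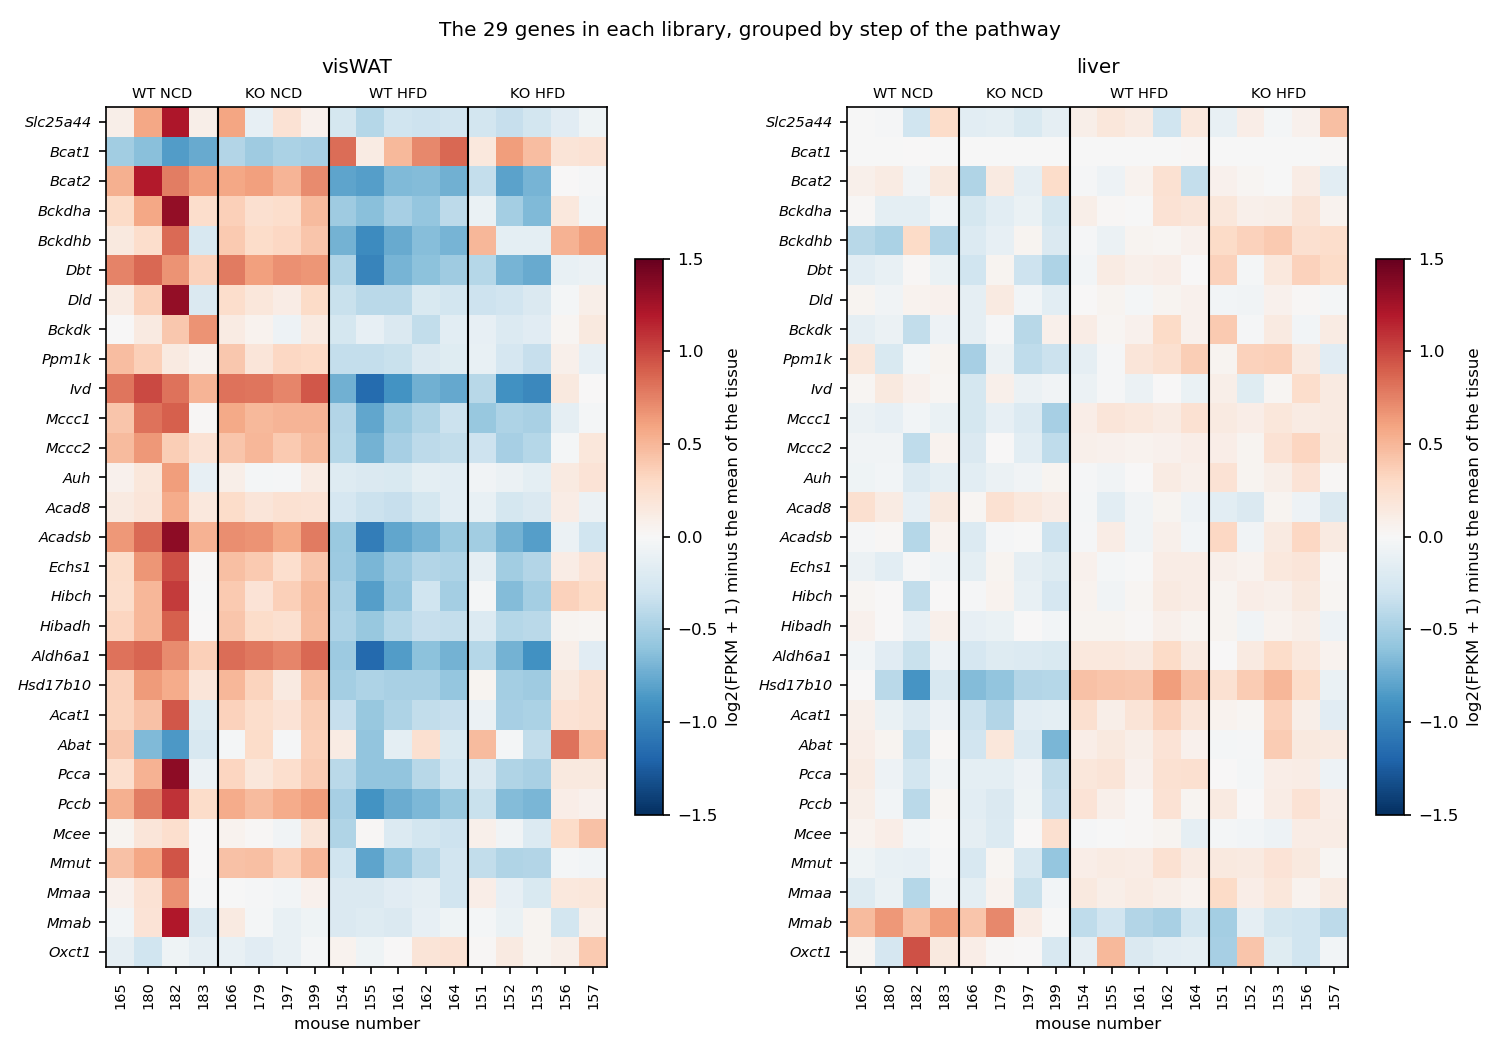
The 29 genes (rows, grouped by step of the pathway) in the 18 visWAT libraries (left) and the 18 liver libraries (right), as log2(FPKM + 1) minus the mean of the gene over the tissue. In visWAT most rows turn from red on NCD to blue in HFD-fed WT mice, Bcat1 runs the other way, while in liver Hsd17b10 and Mmab show the clearest change with diet.

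HFD lowered nearly the whole pathway in visWAT of WT mice. Of 29 members tested, 24 fell and 1, Bcat1, rose, where 15.8% of all 14161 genes were called lower and 21.9% higher (limma). The median log2 fold change of the members was −0.91 and that of all genes −0.01. The fall ran through each step: the carrier Slc25a44, which brings branched-chain amino acids into mitochondria, Bcat2, 3 of the 4 BCKDH subunits, both BCKDH regulators, all 4 genes of the leucine arm, 8 of 9 of the isoleucine and valine arm and 5 of 6 of the propionate arm were called lower. Dld (log2 fold change −0.72, limma adjusted p = 0.0539), Mmab, Abat and Oxct1 were not called.

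The falls were largest for Ivd, Acadsb and Bcat2. Ivd, the isovaleryl-CoA dehydrogenase of leucine breakdown, was 42.4 to 59.5 FPKM in the 4 NCD-fed WT mice and 12.7 to 17.5 FPKM in the 5 HFD-fed ones, which made a log2 difference of −1.63 (SE 0.12, limma adjusted p = 9.74e-06). Acadsb, the short branched-chain acyl-CoA dehydrogenase of isoleucine breakdown, was 25.3 to 45.5 FPKM on NCD and 7.92 to 11.5 FPKM on HFD (−1.57, limma adjusted p = 9.55e-05). For both genes each HFD-fed mouse was below each NCD-fed mouse.

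Bcat2 was 55.39, 87.74, 65.35 and 58.48 FPKM in NCD-fed WT mice 165, 180, 182 and 183. In HFD-fed WT mice 154, 155, 161, 162 and 164 it was 21.52, 20.92, 23.69, 23.92 and 22.74 FPKM, below each NCD-fed mouse and within a narrow range (log2 difference −1.502, SE 0.13, limma adjusted p = 2.21e-05). Bcat1, its cytosolic counterpart, was 0.434, 0.334, 0.150 and 0.214 FPKM in the same NCD-fed mice and 2.68, 1.24, 1.87, 2.39 and 2.74 FPKM in the HFD-fed mice (1.29, adjusted p = 0.000171, limma). The transaminases thus moved in opposite directions, with Bcat2 remaining the higher by FPKM in each library.

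Bckdha, the E1 alpha chain, was 25.33, 31.20, 52.94 and 24.96 FPKM in the NCD-fed WT mice in the same order and 13.85, 12.91, 14.21, 13.43 and 15.36 FPKM in the HFD-fed ones. Dbt was 24.67, 26.81, 23.34 and 18.38 FPKM on NCD and 10.15, 6.69, 8.43, 8.95 and 9.59 FPKM on HFD. Neither gene's groups overlapped (log2 differences −1.14 and −1.31, limma adjusted p = 0.00166 and 6.25e-05). Bckdhb was 45.96, 50.15, 75.84 and 35.05 FPKM on NCD and 25.09, 21.11, 24.23, 26.33 and 25.28 FPKM on HFD (−1.003, SE 0.19, limma adjusted p = 0.00263). With each mouse left out in turn, its log2 difference ran from −1.17 to −0.80. Among the regulators, Bckdk ranged from 17.0 to 27.6 FPKM on NCD and from 12.8 to 15.4 FPKM on HFD (−0.53), and Ppm1k from 1.53 to 2.35 and from 0.892 to 1.15 FPKM (−0.55). Kinase and phosphatase thus fell by similar amounts on the log2(FPKM + 1) scale, which understates the change of the low Ppm1k.

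Groups did not overlap for 24 members that were lower and 2 that were higher on HFD (Bcat1 and Oxct1), against 13.8% and 19.6% of all genes. Without mice 182 and 183, 26 members were called lower and 2 higher. With TPM values, which shifted all genes up by a median of 0.42, 5 were called lower and 1 higher and the members' median was −0.47; without both mice 23 were lower and 2 higher in TPM. Markers of cell types moved with the diet: the summed FPKM of 12 adipocyte markers was 11837 to 22270 in NCD-fed and 5355 to 6761 in HFD-fed WT visWAT, and that of 12 macrophage markers 321.7 to 435.3 and 2594 to 3732, with no marker of either list at 0. The adipocyte sum on NCD rested largely on Cfd, which had a mean of 9491 FPKM there and 389 FPKM on HFD. Mean Lep rose from 137 to 602 FPKM, and mean Cidec was 1453 FPKM on NCD and 1514 FPKM on HFD. The means of the other adipocyte markers were lower on HFD. In bulk tissue, fewer adipocytes and less RNA of these genes per adipocyte cannot be told apart.

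In visWAT of KO mice most members also fell on HFD, while Bckdhb was among the 10 not called. Of 29 members 17 fell and 2 rose (Bcat1 and Oxct1), where 43.7% of all 14026 genes were called, 20.3% lower and 23.3% higher (limma), and the members' median was −0.45. Groups did not overlap for 16 members that were lower and 2 that were higher, against 18.3% and 20.1% of all genes. Dbt fell from 22.4 to 25.3 FPKM on NCD to 8.07 to 13.4 FPKM on HFD (log2 fold change −1.10, adjusted p = 0.000699, limma), and Bckdha from 24.5 to 28.97 FPKM to 12.6 to 23.1 FPKM (−0.56, adjusted p = 0.0206, limma). Bckdhb was 54.93, 50.34, 51.82 and 55.91 FPKM in NCD-fed KO mice 166, 179, 197 and 199, and 58.91, 37.35, 37.32, 60.25 and 64.57 FPKM in HFD-fed KO mice 151, 152, 153, 156 and 157. Its log2 fold change was −0.08 (95% interval −0.48 to 0.32, adjusted p = 0.738, limma), and in WT mice it was −1.003 (95% interval −1.43 to −0.58). The interaction term given below, which tests this difference between genotypes, was not called for Bckdhb (limma adjusted p = 0.317). The largest falls in KO mice were those of Ivd (−1.25), Aldh6a1 (−1.23) and Acadsb (−1.17). Bckdk (−0.12), Hsd17b10 (−0.48), Hibch (−0.48) and Acat1 (−0.42) were not called, nor were Auh, Mcee, Mmaa, Mmab and Abat. The markers moved with diet here too: the adipocyte sum was 17202 to 21530 FPKM on NCD and 6084 to 12873 FPKM on HFD, and the macrophage sum 398.3 to 660.6 and 1101 to 3355 FPKM. Mean Cfd fell from 11603 to 1844 FPKM. The means of Lep, Cidec, Gpd1 and Fabp4 were higher on HFD, and those of the other adipocyte markers lower. The part of the markers was not tested.

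**Figure D2:**
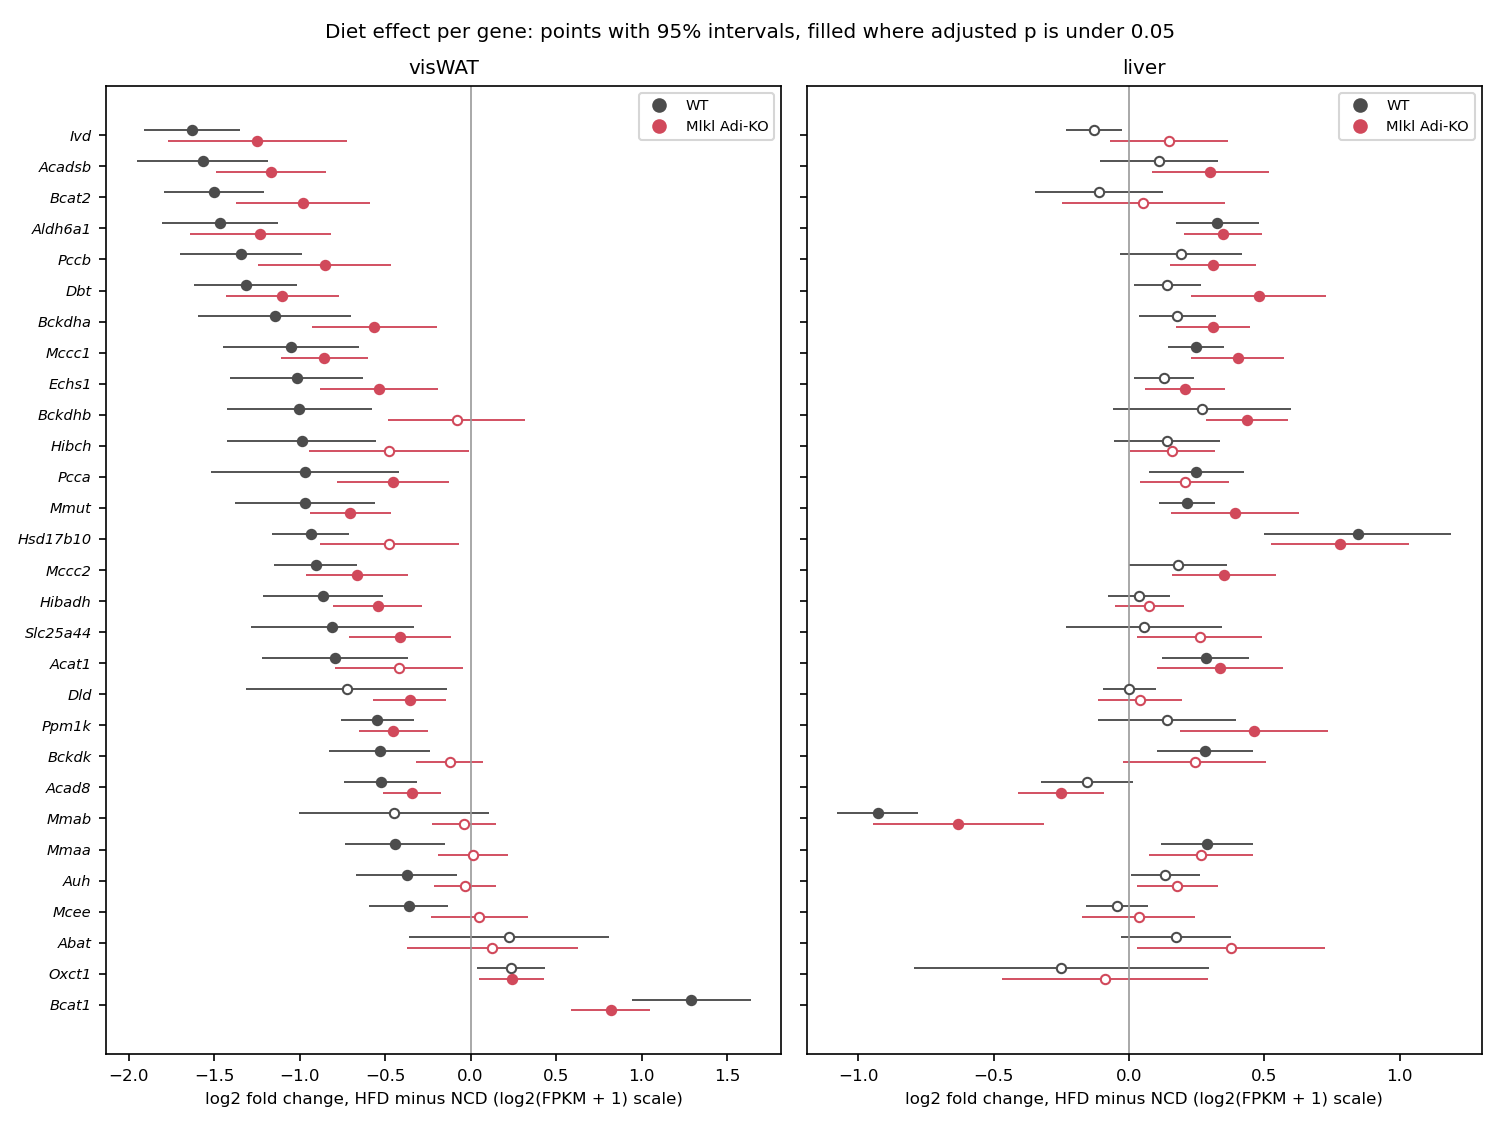
Log2 fold change from NCD to HFD (horizontal axis, log2(FPKM + 1) scale) of each of the 29 genes (rows) in visWAT (left) and liver (right), for WT mice (grey) and KO mice (red), with 95% intervals; filled points have an adjusted p under 0.05. In visWAT the points lie to the left of 0 except for Bcat1, Oxct1 and Abat and, in KO mice, Mcee and Mmaa near 0; Bckdhb of KO mice sits at −0.08.

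Whether the diet effect differed between genotypes was tested with an interaction term over the 18 mice. None of the 29 members was called in visWAT, where 0 of 14136 genes were (0% of all; limma, 9 members and 13.2% of all genes with an unadjusted p under 0.05; edgeR and DESeq2 on the recovered reads called 0 members). Without mice 182 and 183, 0 members were called as well, and the interaction of Bckdhb was 0.87 (limma adjusted p = 0.518). With all mice the interaction of Bckdhb was 0.92 (standard error 0.27, adjusted p = 0.317, limma, 95% interval 0.35 to 1.497), the highest of the 29 members. In sign it was positive for 27 of 29 members with a median of 0.38, and on the TPM scale, which moved the median of all genes by −0.45, for 8 of 29. The smaller falls of most members in KO mice were therefore not shown to differ from those in WT mice. In liver 0 of the tested members were called, and 0.0151% of all genes.

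Liver moved the other way on HFD, and by less. In WT liver 8 of 28 members tested were called higher and 1 lower, against 13.2% and 12.1% of all 13330 genes (limma, 25.3% in all). Hsd17b10, a dehydrogenase of isoleucine breakdown, rose from 81.5 to 152 FPKM on NCD to 201 to 234 FPKM on HFD (log2 fold change 0.85, adjusted p = 0.00402, limma). Aldh6a1, which makes propionyl-CoA from valine, rose by a log2 fold change of 0.33 and Mmaa by 0.29. Mmab, which prepares the cobalamin cofactor of methylmalonyl-CoA mutase, fell from 12.9 to 15.0 FPKM to 6.25 to 7.35 FPKM (−0.93, adjusted p = 4.16e-05, limma). In KO liver 13 were called higher and 2 lower (Mmab and Acad8), against 11.9% and 10.3% of all 13149 genes, or 22.2% together. Bckdhb rose there from 55.94, 59.05, 66.30 and 55.34 FPKM in mice 166, 179, 197 and 199 to 79.33, 82.32, 85.50, 76.43 and 77.52 FPKM in mice 151, 152, 153, 156 and 157 (log2 fold change 0.44, adjusted p = 0.00207, limma), with no overlap. In WT liver its change was 0.27 (adjusted p = 0.214, limma), and without mouse 182, left out after its values were seen, it was 0.45 (adjusted p = 0.000267, limma). With a minimum size of 0.5 on the log2 scale, Hsd17b10 and Mmab were the 2 members still called in each genotype.

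The diet effect of WT mice differed between the tissues for 24 of 29 members by the per-mouse difference of visWAT and liver (1 more positive and 23 more negative in visWAT, against 20.2% and 16.3% of all 14746 genes; limma). Aldh6a1 had the most negative value, at −1.79 on the log2 scale (standard error 0.16, adjusted p = 4.35e-05, limma), and Hsd17b10 was at −1.78. On the TPM scale 1 was more positive and 8 more negative. Without mice 182 and 183, 2 were more positive and 23 more negative in FPKM, and likewise in TPM.

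Related genes that are not members were counted from a list of 40, which holds amino acid carriers, ketone and beta-oxidation genes, aldehyde dehydrogenases and transaminases, cofactor handling, and transcriptional regulators. In visWAT of WT mice 4 of the 38 tested rose and 11 fell on HFD, beside 21.9% and 15.8% of all genes. Aacs, which activates acetoacetate for lipid synthesis (log2 fold change −1.91), the alanine transaminase Gpt2 (−1.47) and the transcription factor Klf15 (−1.43) fell most. In KO visWAT 11 of 38 rose and 11 fell, beside 23.3% and 20.3% of all genes, with Gpt2 (−1.49), Aacs (−1.31) and Klf15 (−1.17) falling most. Klf15, known as an activator of amino acid breakdown genes, also fell in WT and KO liver (−0.75 in each). Of the 8 beta-oxidation genes of the list, 1 fell in WT visWAT and 4 rose in KO visWAT, beside the shares of all genes just given. Between genotypes, 0 of the 37 to 40 related genes tested were called in any of the 4 comparisons (limma).

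Genotype was then compared within each diet and tissue. In visWAT on HFD 0 of 29 members were called, while 3 of 13963 genes were (0.0215%; 0.0143% higher and 0.00716% lower; limma). DESeq2 on the recovered reads called 1 member, Bckdhb, against 0.609% of all genes called higher, and edgeR called 0. An unadjusted p under 0.05 was found for 9 members and 21.5% of all genes. Members were higher in KO mice in 28 of 29 cases, with a median log2 fold change of 0.24 (all genes: 49.8% higher, median 0.00). On the TPM scale, on which all genes shifted by −0.10, 26 of 29 were higher. The single member that was lower was Bcat1, at 1.29 to 2.17 FPKM in KO and 1.24 to 2.73 FPKM in WT mice.

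Bckdhb was the only member whose KO and WT mice did not overlap in visWAT on HFD, where 1.42% of all genes were separated in that direction and 1.59% in the other. The gene lies at chr9:83807198-84006293 on the plus strand of mm39, with 1805 bases of annotated length, by the authors' annotation. GENCODE vM39, used for the window above, places the canonical start 5′ of that span and gives that transcript 4977 bases. KO mice 151, 152, 153, 156 and 157 had 58.91, 37.35, 37.32, 60.25 and 64.57 FPKM. The corresponding values of WT mice 154, 155, 161, 162 and 164 were 25.09, 21.11, 24.23, 26.33 and 25.28 FPKM. The lowest KO mouse was thus above the highest WT mouse, and mice 152 and 153 were lower than the other KO mice. The log2 difference was 1.02 (SE 0.16, limma adjusted p = 0.113). Over all alternatives the adjusted p ran from 9.67e-07 (DESeq2) to 0.385 (limma without KO mouse 151), and limma reached the threshold without KO mouse 153 (adjusted p = 0.0398). Bckdhb was singled out for comparison with its partners when this difference was already known, so that its size here is a description.

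The other subunits differed less. Bckdha was 19.10, 14.16, 12.59, 23.12 and 20.02 FPKM in the KO mice in that order and 13.85, 12.91, 14.21, 13.43 and 15.36 FPKM in the WT mice (log2 fold change 0.30, 95% interval −0.02 to 0.62). Dbt was 10.33, 8.43, 8.07, 13.17 and 13.39 FPKM and 10.15, 6.69, 8.43, 8.95 and 9.59 FPKM (0.24, −0.10 to 0.58). Dld was 32.80, 33.50, 35.33, 40.18 and 43.83 FPKM and 32.45, 30.91, 30.69, 34.82 and 33.70 FPKM (0.18, −0.01 to 0.37). In all 3 subunits the genotypes overlapped, and KO mice 156 and 157 were the highest of the 10 mice. Bckdk was 14.5 to 18.8 FPKM in KO and 12.8 to 15.4 FPKM in WT mice (0.16), and Ppm1k 0.911 to 1.56 and 0.892 to 1.15 FPKM (0.14).

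Adipocyte and macrophage markers also separated the HFD-fed KO mice among themselves. The adipocyte list summed to 10710, 6420, 6084, 12873 and 12579 FPKM in KO mice 151, 152, 153, 156 and 157, and to 5355 to 6761 FPKM in WT mice. The macrophage list summed to 2108, 3039, 3355, 1159 and 1101 FPKM in these KO mice and to 2594 to 3732 FPKM in WT mice. Mice 152 and 153 were the lowest KO mice both in the adipocyte sum and in Bckdhb. Both of these mice had adipocyte sums within the WT range, and Bckdhb at 37.35 and 37.32 FPKM beside at most 26.33 FPKM in WT mice. These mice were picked after the values were seen, and nothing on cell content is drawn from them. Of the adipocyte markers, Cfd had the largest SD in these groups, at 1844 ± 1544 FPKM in KO and 389 ± 142 FPKM in WT mice. The part of the markers in the differences of Bckdhb and of the other members was not tested.

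**Figure D3:**
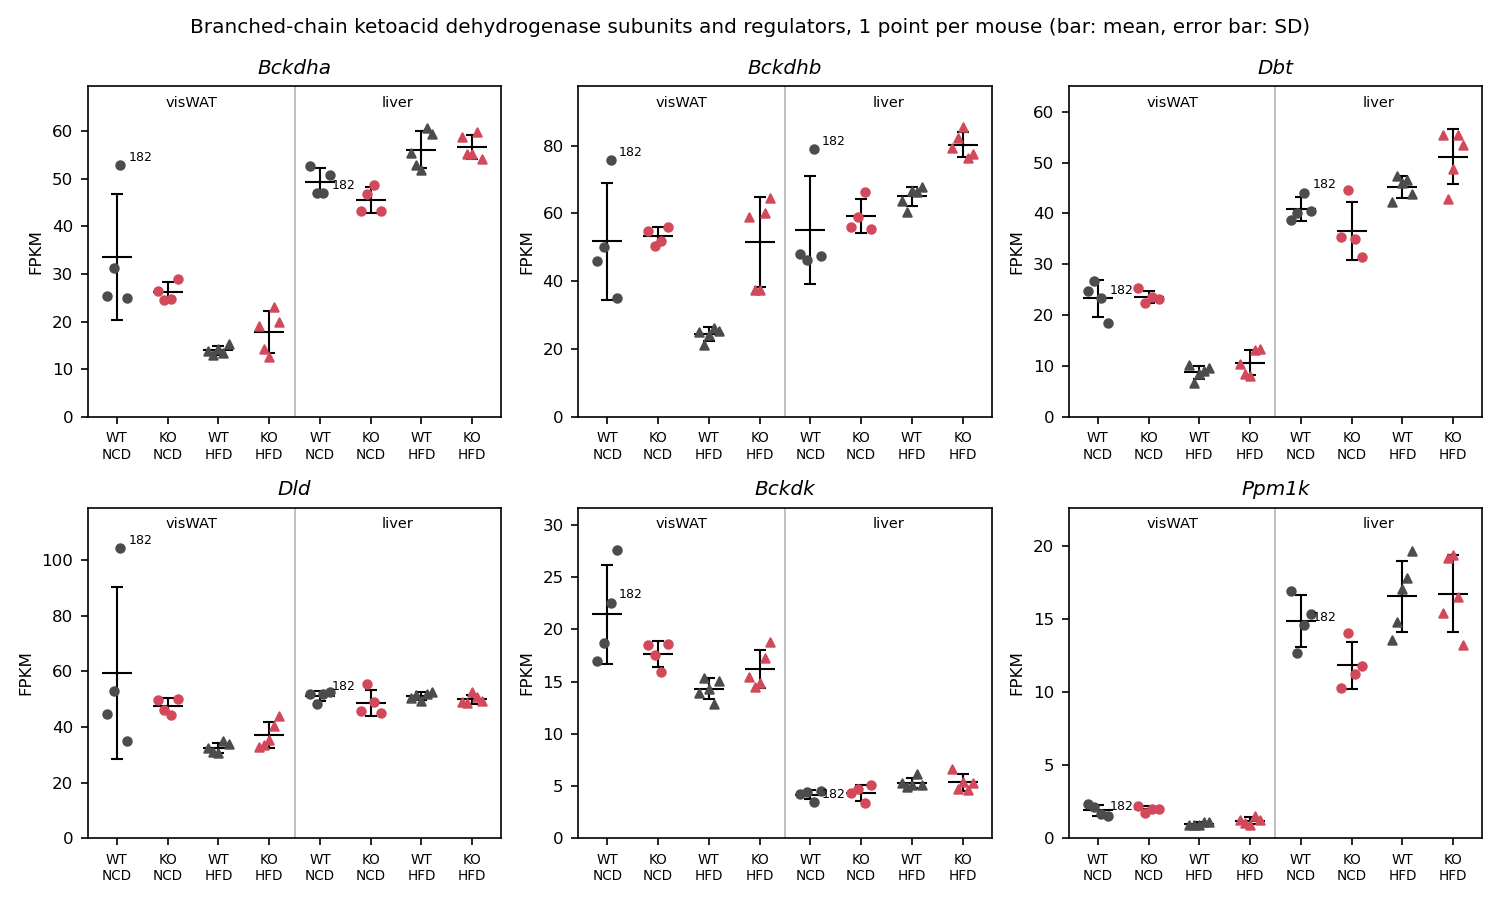
FPKM of the 4 BCKDH subunits, the kinase Bckdk and the phosphatase Ppm1k in each mouse (points; circles NCD, triangles HFD; grey WT, red KO) of the 8 groups, with the mean (bar) and SD (error bar); mouse 182 is marked. Bckdhb of HFD-fed KO visWAT, at 37.32 to 64.57 FPKM, lies in part below and in part above that of NCD-fed KO mice, while Bckdha and Dbt of the same mice lie with those of HFD-fed WT mice or between the diets.

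The ratio of Bckdhb to Bckdha was computed in each library, since both chains belong to E1 and a shared change of the tissue cancels in it. In visWAT on HFD it was 3.08, 2.64, 2.96, 2.61 and 3.23 in KO mice 151, 152, 153, 156 and 157 and 1.81, 1.64, 1.70, 1.96 and 1.65 in WT mice 154, 155, 161, 162 and 164, a 1.66-fold difference (log2 difference 0.73, SE 0.078) with no overlap. Since Bckdhb was chosen with its values in these libraries known, this is a description and no p is given for it. KO mice 152 and 153, low in both genes, had ratios like those of the other KO mice. With Dbt as the denominator the log2 difference was 0.78, and with the mean of Bckdha, Dbt and Dld it was 0.79.

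On NCD limma called neither Bckdhb (log2 fold change 0.09) nor Bckdha (−0.28) in visWAT, and the ratio was again higher in KO mice. In visWAT on NCD it was 2.07, 2.05, 2.09 and 1.93 in KO mice 166, 179, 197 and 199, and 1.81, 1.61, 1.43 and 1.40 in WT mice 165, 180, 182 and 183, with no overlap (1.31-fold, log2 difference 0.39; exact two-sided permutation p = 0.0286, the smallest that 4 against 4 allow, 0.0571 after Benjamini-Hochberg adjustment over 6 ratio comparisons, genotype in each tissue and diet and diet in WT mice of each tissue). With Dbt as the denominator the difference shrank to 0.07 (exact two-sided permutation p = 0.8), mouse 182 having the highest Bckdhb to Dbt ratio of the WT mice at 3.25 and the others 1.86 to 1.91. With the mean of Bckdha, Dbt and Dld as the denominator the ratio was 1.71 to 1.75 in KO and 1.39 to 1.51 in WT mice, with no overlap. Without mice 182 and 183 the log2 difference of the ratio to Bckdha was 0.25 (exact two-sided permutation p = 0.133). Whether the genotype difference in the ratio was larger on HFD than on NCD was not tested.

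In liver on HFD the ratio was 1.35, 1.49, 1.55, 1.28 and 1.43 in KO mice and 1.15, 1.14, 1.28, 1.09 and 1.14 in WT mice in the same order (1.22-fold; exact two-sided permutation p = 0.0159, 0.0476 after adjustment over the 6 comparisons). The 6 comparisons include visWAT on HFD, where Bckdhb was chosen with its values known. The adjusted values here and for visWAT on NCD depend on that comparison, so no call is drawn from them. KO mouse 156, at 1.276, and WT mouse 161, at 1.285, were the only pair that overlapped. With Dbt as the denominator the log2 difference fell from 0.29 to 0.13 (p = 0.278, two-sided exact permutation test). With the mean of Bckdha, Dbt and Dld the ratio was 1.38 to 1.70 in KO and 1.20 to 1.36 in WT mice, with no overlap. In liver on NCD the ratio to Bckdha was 1.29, 1.26, 1.36 and 1.28 in KO mice and 0.911, 0.986, 1.68 and 0.933 in WT mice 165, 180, 182 and 183 (exact two-sided permutation p = 0.2). Mouse 182 stood above all KO mice, and the other 3 WT mice were below all of them. Without mouse 182, left out after its ratio was seen, the ratio was 1.38-fold higher in KO mice (p = 0.0571, two-sided exact permutation test, the smallest that 4 against 3 allow). Between diets in WT mice the ratio differed by 1.12-fold in visWAT and 1.07-fold in liver (p = 0.127 and 0.714, two-sided exact permutation tests). Without mouse 182 it differed by 1.09-fold in visWAT and 1.23-fold in liver (p = 0.286 and 0.0357, two-sided exact permutation tests). Here too mouse 182 was left out after its ratio was seen.

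**Figure D4:**
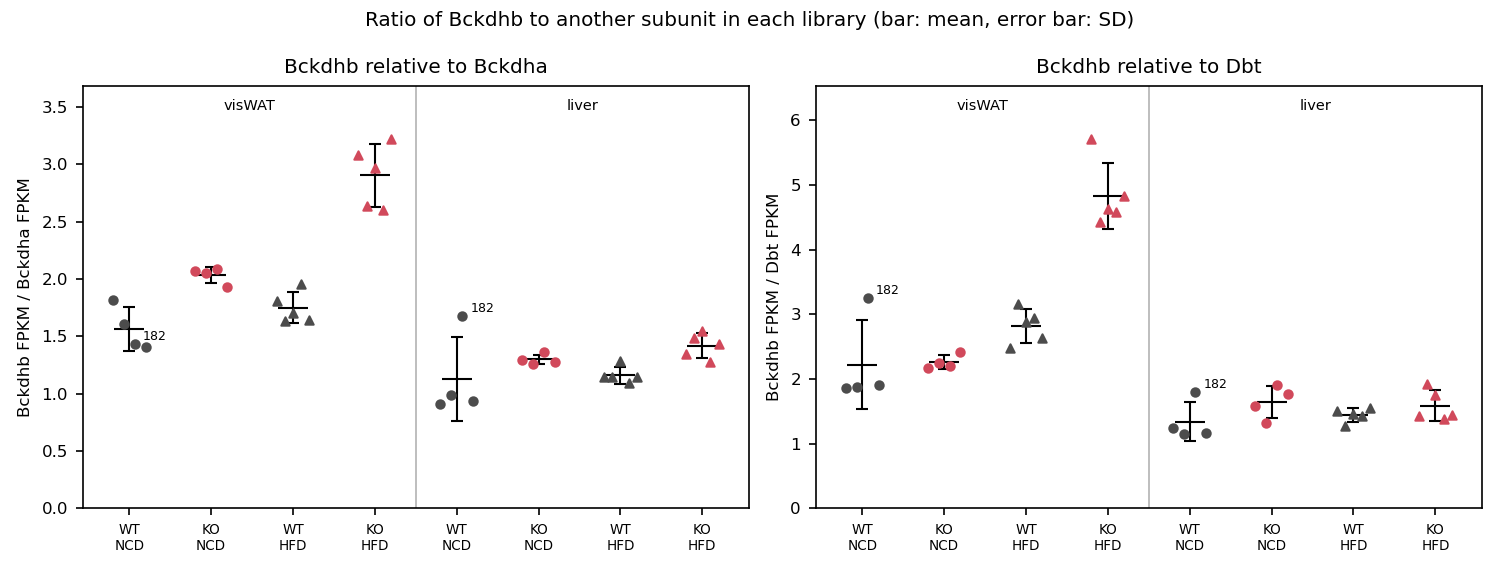
Bckdhb FPKM divided by Bckdha FPKM (left) and by Dbt FPKM (right) in each library (points; circles NCD, triangles HFD; grey WT, red KO) of the 8 groups, with the mean (bar) and SD (error bar); mouse 182 is marked. In HFD-fed visWAT the KO mice, at 2.61 to 3.23 for Bckdha, are all above the WT mice, at 1.64 to 1.96, and in NCD-fed liver mouse 182, at 1.68, is apart from the other WT mice.

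In liver on HFD Bckdhb was the single member called of 28 (limma; of all 13215 genes 0.197% were called, 0.129% higher and 0.0681% lower) and the single one without overlap (1.38% of all genes were separated in this direction). KO mice 151, 152, 153, 156 and 157 had 79.33, 82.32, 85.50, 76.43 and 77.52 FPKM against WT mice 154, 155, 161, 162 and 164 with 63.62, 60.55, 66.75, 66.24 and 67.85 FPKM. Its log2 difference was 0.30 (SE 0.048, limma adjusted p = 0.0453). The call was lost when any 1 of the 10 mice was left out (adjusted p = 0.0560 to 0.146, limma), on the TPM scale (0.172) and without the filter on low values (0.0680), while the direction stayed. Bckdha, at 54.1 to 59.9 FPKM in KO and 52.0 to 60.8 FPKM in WT liver, and Dld, at 48.5 to 52.5 and 49.2 to 52.5 FPKM, overlapped throughout. Dbt was 55.54, 42.76, 48.73, 55.48 and 53.48 FPKM in the KO mice in the order above and 42.26, 47.30, 46.02, 46.61 and 43.76 FPKM in the WT mice, a log2 difference of 0.17 in the direction of Bckdhb that was not called (95% interval 0.00752 to 0.33, limma adjusted p = 0.387), with overlap. The genotypes were also set apart by the difference of the tissues in the same mice: visWAT minus liver was −1.17 to −0.26 on the log2 scale in KO mice and −1.48 to −1.30 in WT mice (difference 0.72, SE 0.20, given as a description).

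On NCD 0 of 28 members were called in either tissue (0% of all genes in visWAT and 0.00758% in liver; limma, with 0 and 1 members at an unadjusted p under 0.05 and 0 called by edgeR or DESeq2). In visWAT 8 of 28 members were higher in KO mice (median −0.08), and on the TPM scale, which moved all genes by 0.35, 28 of 28, so no direction can be given. In liver 6 of 28 were higher (median −0.11). Bckdhb was 54.93, 50.34, 51.82 and 55.91 FPKM in visWAT of KO mice 166, 179, 197 and 199 and 45.96, 50.15, 75.84 and 35.05 FPKM in WT mice 165, 180, 182 and 183. In liver it was 55.94, 59.05, 66.30 and 55.34 FPKM in KO and 48.05, 46.30, 79.02 and 47.43 FPKM in WT mice. Mouse 182 had the highest Bckdhb of its group in both tissues. Without it each KO mouse was above each WT mouse in both, but mouse 182 was left out after these values were seen. With all mice 0 members were separated (background 1.87% higher and 0.59% lower in visWAT, 1.39% and 1.4% in liver). Without mouse 182 Bckdhb had log2 differences of 0.29 in visWAT and 0.31 in liver (exact two-sided permutation p = 0.0571 for each, the smallest that 4 against 3 allow). The share of all genes separated without mouse 182 was not computed, and the values without it are a description.

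**Figure D5:**
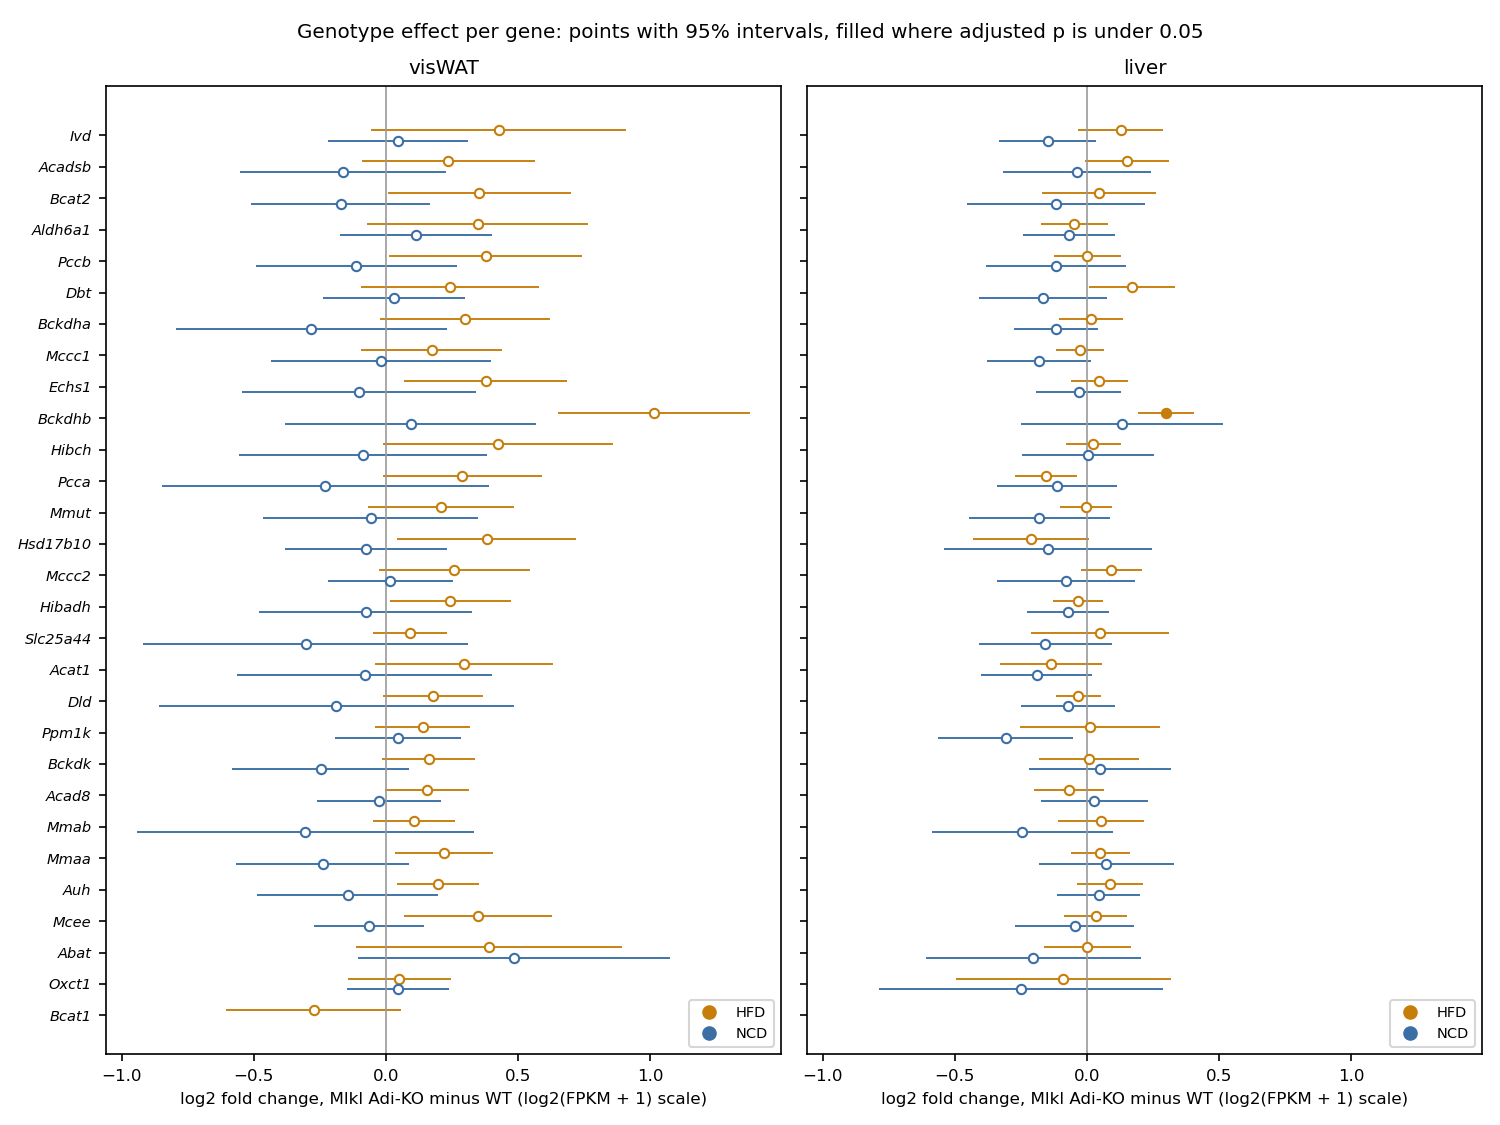
Log2 fold change from WT to KO (horizontal axis, log2(FPKM + 1) scale) of each of the 29 genes (rows) in visWAT (left) and liver (right), on HFD (orange) and NCD (blue), with 95% intervals; filled points have an adjusted p under 0.05. Bckdhb on HFD stands apart at 1.02 in visWAT and is the single filled point, at 0.30, in liver.

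The genes around Bckdhb on chromosome 9 were read in the same comparisons. Of the genes starting within 1 Mb, Sh3bgrl2, Rps27a-ps2, Hmgn3 and Gm38398 were tested in visWAT on HFD, with log2 fold changes of −0.58, −0.13, 0.29 and −0.10 and adjusted p between 0.221 and 0.698 (limma). In liver on HFD, Sh3bgrl2 was at −0.06, Rps27a-ps2 at 0.24, Gm27216 at −0.38 and Gm29163 at −1.20, and 0 of them were called. Gm29163, an snRNA, lies within Bckdhb on the other strand. Within 10 Mb, 25 of 76 other genes had an unadjusted p under 0.05 in visWAT on HFD, or 32.9% against 21.5% of all genes, and 24 of 66 in liver on HFD, or 36.4% against 12.6%. By direction, 19 of these were lower and 6 higher in KO mice in visWAT, and 16 lower and 8 higher in liver. The shares of all genes by direction were not computed at this threshold. On NCD the shares were 12.5% in visWAT and 5.63% in liver, against 3.75% and 4.35% of all genes.

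Zfp949, which codes for a zinc finger protein and lies at chr9:88430073-88453114, was the 1 gene called in that window in visWAT on HFD, and is named after its values were seen. It was 4.58 to 6.29 FPKM in KO and 1.497 to 1.88 FPKM in WT visWAT on HFD (log2 fold change 1.16, adjusted p = 0.000211, limma), and 3.49 to 4.06 against 1.99 to 2.33 FPKM in liver (0.62, adjusted p = 0.00189, limma). On NCD it was 3.61 to 4.18 FPKM in KO liver, and in WT liver 2.16 to 2.57 FPKM in 3 mice and 4.98 FPKM in mouse 182. In visWAT on NCD it was 6.11 to 7.15 FPKM in KO and 2.26 to 3.52 FPKM in WT mice. Mouse 182 had the highest WT value there, 3.52 FPKM, below each KO mouse. Gm37614 and C920006O11Rik were also called in liver on HFD. The part of the genomic region in the Bckdhb difference was not tested.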

How the data were processed

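RNA was measured in visWAT and liver of 18 mice. Per the labels and the study's methods, polyA RNA was sequenced in pairs, aligned with HISAT2 to mm39 and counted per gene with featureCounts (1.5.0-p3), with no pooling of mice. Annotation release, strand setting and treatment of multi-mapping reads are not given in the sources used here, so genes that overlap others (Bckdha with B3gnt8, Bckdhb with antisense noncoding genes, Aldh6a1 with Bbof1, Echs1 with Paox) may share reads. The authors deposited FPKM values per gene and library for all genes, scaled by a library size (1.01 to 1.40 of the summed gene reads for visWAT, 0.737 to 0.812 for liver), and raw counts for part of the genes. Whole reads were recovered from FPKM (100% of values within 0.01 of a whole number). The authors' fold changes, p-values and enrichments were not used, nor were 72 further per-sample columns of normalised values.

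The 29 members and the lists of related genes and cell markers were chosen with earlier results of these data known. Genes averaging 0.5 FPKM or more over the fitted libraries were analysed as log2(FPKM + 1) with limma (3.58.1, R 4.3.3; moderated variance with trend, Benjamini-Hochberg over all genes, threshold 0.05) for genotype, diet, tissue and their interactions. Single values were compared with exact two-sided permutation tests over mice (scipy 1.17.1), and ratios were averaged as log2. Alternatives were edgeR (4.0.16) and DESeq2 (1.42.0) on recovered reads, a pseudocount of 0.1, other filters, TPM, a minimum change of 0.5, and leaving out each mouse. The fits were tested on simulated data. Per-mouse values are given for 8 core genes (Bcat1, Bcat2, the BCKDH subunits, Bckdk, Ppm1k), and ranges for members with the largest changes in a contrast. Both tissues came from the same mice by the labels, which pairs them. The deviations of a mouse from its group means correlated between tissues at −0.05 to 0.22. Mice of a group are separate animals. Depth was 20875463 to 30322171 reads per library. 1 sequence is not reported here.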

Additional observations from a re-analysis of the deposited data

Results flagged for a closer look

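Single mice stood apart from their group in 12 of 226 sets of member values and in 2 of 8 sets of ratios, where about 1 in 20 sets is expected by chance. In liver of WT mice on NCD, mouse 182 had the highest Bckdhb at 79.0 FPKM (others 46.3 to 48.0), a Bckdhb to Bckdha ratio of 1.68 (others 0.911 to 0.986) and the lowest Hibch at 12.5 FPKM (others 16.5 to 16.8), and mouse 180 had the lowest Dld at 48.3 FPKM (others 51.7 to 52.4). In visWAT of the same group, mouse 182 had 12.7 FPKM of Acad8 (others 9.22 to 9.55).

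In liver of WT mice on HFD, mouse 162 stood apart in 5 members: Bckdk at 6.11 FPKM (others 4.91 to 5.25), Aldh6a1 at 127.8 FPKM (others 114.9 to 116.8), Hsd17b10 at 234.0 FPKM (others 201.3 to 206.4), Mmut at 80.8 FPKM (others 74.0 to 75.3) and Slc25a44 at 27.4 FPKM (others 36.2 to 38.3). In the same group mouse 155 had 2.00318 FPKM of Oxct1 (others 0.842 to 0.952) and mouse 161 a Bckdhb to Bckdha ratio of 1.28. In visWAT on HFD, WT mouse 155 had 10.8 FPKM of Slc25a44 (others 11.9 to 12.3) and KO mouse 157 had 74.3 FPKM of Oxct1 (others 57.2 to 62.1).

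The diet effect of WT mice differed between visWAT and liver for 24 members (limma on the per-mouse difference, log2 values of visWAT minus liver). It was positive for Bcat1, at 1.29. In the isoleucine and valine arm it was −1.79 for Aldh6a1, −1.78 for Hsd17b10, −1.68 for Acadsb, −1.14 for Echs1, −1.13 for Hibch, −1.08 for Acat1 and −0.90 for Hibadh. In the leucine arm it was −1.4997 for Ivd, −1.30 for Mccc1, −1.09 for Mccc2 and −0.51 for Auh. For the BCKDH genes it was −1.46 for Dbt, −1.32 for Bckdha, −1.27 for Bckdhb, −0.81 for Bckdk and −0.69 for Ppm1k. It was −1.39 for Bcat2, −0.87 for Slc25a44, −1.53 for Pccb, −1.22 for Pcca, −1.18 for Mmut, −0.73 for Mmaa and −0.32 for Mcee. The genotype difference of Bckdhb on HFD, visWAT minus liver, was 0.72 on the log2 scale, in a gene chosen with its visWAT values known.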

How the results depend on the processing

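The fall of the members in WT visWAT on HFD kept its direction under each alternative for the median of the members, but its count of calls depended on the scaling. With TPM, 6 members were called in place of 25 in WT visWAT by diet, 8 in place of 15 between tissues and 9 in place of 24 for the tissue difference of the diet effect. With TPM, Auh (0.0345) and Mcee (0.10) turned positive for diet in WT visWAT, as did Mcee (0.12) for the tissue difference of that effect. Between tissues Bckdha (0.0262), Bckdhb (0.54) and Aldh6a1 (0.28) turned positive with TPM. With TPM and without mice 182 and 183 (chosen after seeing the data) Bckdha (0.22), Bckdhb (1.07), Dbt (0.43), Aldh6a1 (0.78), Hsd17b10 (0.00279) and Mcee (0.13) did, and Bckdhb (0.0251) with FPKM without those mice. The cause was not tested.

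In liver on HFD 0 members were called in place of 1 without the filter, with TPM or with a minimum change of 0.5, and 0 to 0 when each mouse was left out. In visWAT on HFD DESeq2 called 1 member in place of 0, and leaving out each mouse gave 0 to 1 (1 without KO mouse 153). With a minimum change of 0.5, 2 members were called by diet in each genotype of liver. Leaving out each mouse gave 22 to 27 called members for diet in WT visWAT, 15 to 21 in KO visWAT, 7 to 11 in WT liver, 9 to 15 in KO liver (9 without KO mouse 197), 12 to 20 between tissues and 21 to 24 for the tissue difference of the diet effect. Bckdhb by genotype in visWAT on NCD ran from −0.0709 (without mouse 183) to 0.29, by diet in KO visWAT from −0.17 to 0.0241 (above 0 without KO mouse 152 or 153), and its liver interaction from −0.0152 (without mouse 182) to 0.24.

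The ratio of Bckdhb to Bckdha by genotype in visWAT on NCD was 0.34 to 0.46 when each mouse was left out, a design in which no call is possible, 0.25 without mice 182 and 183, and 0.0652 with Dbt as the denominator. In liver on HFD it was 0.13 with Dbt. With the mean of Bckdha, Dbt and Dld as the denominator, KO and WT mice did not overlap in either of these comparisons. The diet difference of the ratio in WT mice was 0.12 to 0.24 in visWAT (0.24 without mouse 165) and 0.00482 to 0.30 in liver (0.30 without mouse 182). The genotype difference of visWAT minus liver on NCD was −0.04, 0.36 with TPM, and −0.14 to 0.0357 with a mouse left out (0.0357 without mouse 180, 0.0294 without KO mouse 197).

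With the mouse as a replicate block, 13 members in place of 15 differed between tissues. The block changed no other call among those members.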
